A study of Mus musculus with 9 samples.

Results

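The genes described here build the cornified envelope and lie in the epidermal differentiation complex of mouse chromosome 3. They were taken from the deposited table by symbol: every small proline-rich (Sprr) gene, every late cornified envelope (Lce) gene, and Flg, Flg2, Hrnr, Rptn, Crnn, Ivl, Lor, Crct1 and Kprp, leaving out pseudogenes marked -ps. The rule found 45 of the 54456 genes in the table, in an interval of 1319 kb (chr3:91987578-93306749, mm39), and 44 of them had enough counts to be tested. They fall into 15 Sprr genes (11 of them Sprr2), 21 Lce genes (14 Lce1, 6 Lce3 and Lce6a), 5 filaggrin-like genes and 4 others.

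The tissue was lesional mouse skin, AA-like by its label (the series concerns alopecia with an immune cause), and the RNA was polyadenylated. There were 3 libraries of untreated lesions, 3 of lesions given empty microneedles (short needles without a load) and 3 of lesions given microneedles loaded with IL-2 and CCL22. IL-2 supports the growth of T cells, and CCL22 draws cells that bear the receptor CCR4. The labels give no strain, age, sex, dose or time, and whether each library had its own animal is not stated. The p-values therefore rest on the spread among these libraries alone, part or all of which may be technical.

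The cornified envelope is a sheet of crosslinked protein that replaces the plasma membrane of keratinocytes as they die and become the outer layer of the skin. Involucrin is laid down early as a scaffold, loricrin then makes up much of the mass, and small proline-rich and late cornified envelope proteins are joined in by transglutaminases. The filaggrin-like proteins are fused to an S100 calcium-binding domain and carry long repeats, and filaggrin itself is cut from a precursor, bundles keratin and is broken down to amino acids that hold water. The genes sit together in the complex and are switched on in the last steps of epidermal differentiation, while some Sprr and Lce3 genes are also known to rise after injury and in inflamed skin.

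Total counts ran from 85962714 to 96740589 per library. The envelope genes took 1.09% to 1.15% of all counts in untreated skin, 1.28% to 1.35% with empty microneedles and 0.86% to 0.885% with loaded microneedles, with no overlap between the groups. Levels are given as CPM, counts relative to the library total after TMM scaling (which takes most genes as unchanged), fold changes as log2 values ± standard error, and p-values from edgeR's quasi-likelihood test, adjusted over all 26081 tested genes and called under 0.05. In bulk skin, fewer cells of a type and less RNA per cell cannot be told apart.

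With loaded microneedles the envelope genes were lower almost throughout. Against untreated skin 38 of the 44 tested genes fell, 0 rose and 6 did not pass the test. Of all tested genes 23.3% were called lower and 19.0% higher in that comparison. The count of 0 higher held at an unadjusted p under 0.05 and with DESeq2 and limma-voom, while scaling by library size alone gave 2 higher (Sprr1a and Flg2). At least a 2-fold fall was called for 21 of the 44, against 1.60% of all tested genes, and at least a 2-fold rise for 0, against 0.322%. The median log2 fold change over the 44 was −0.96, against −0.01 over all tested genes. The 3 loaded and 3 untreated libraries did not overlap for 42 of the 44, where 52.7% of all tested genes showed no overlap.

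Empty microneedles split the same genes. Against untreated skin 11 rose, 17 fell and 16 did not pass, beside 20.2% of all tested genes higher and 28.1% lower. Scaling by library size alone, which moved the median of all genes up by 0.10 in this comparison and by 0.13 for loaded against untreated, gave 16 higher and 14 lower. A 2-fold rise was called for Sprr2i and Sprr2d (0.656% of all tested genes) and a 2-fold fall for Sprr2a3 and Crnn (1.67%). The median over the 44 was −0.08 and over all genes −0.02, and 27 of the 44 showed no overlap, beside 54.6% of all genes. Without a minimum fold, members were thus called only somewhat more often than genes overall.

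Loaded and empty microneedles differ in the load, and the comparison of both is the test of the difference between the other comparisons, which share the untreated libraries. Between them 41 of the 44 genes were lower with the loaded device, 2 were higher (Crnn and Sprr1a) and Sprr4 did not pass. Of all tested genes 18.5% were called lower and 22.9% higher. A 2-fold fall was called for 15 genes (1.17% of all tested genes) and a 2-fold rise for 0 (0.794%). The median was −0.87, against 0.02 over all genes, and 43 of the 44 showed no overlap, beside 50.8% of all genes.

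**Figure D1:**
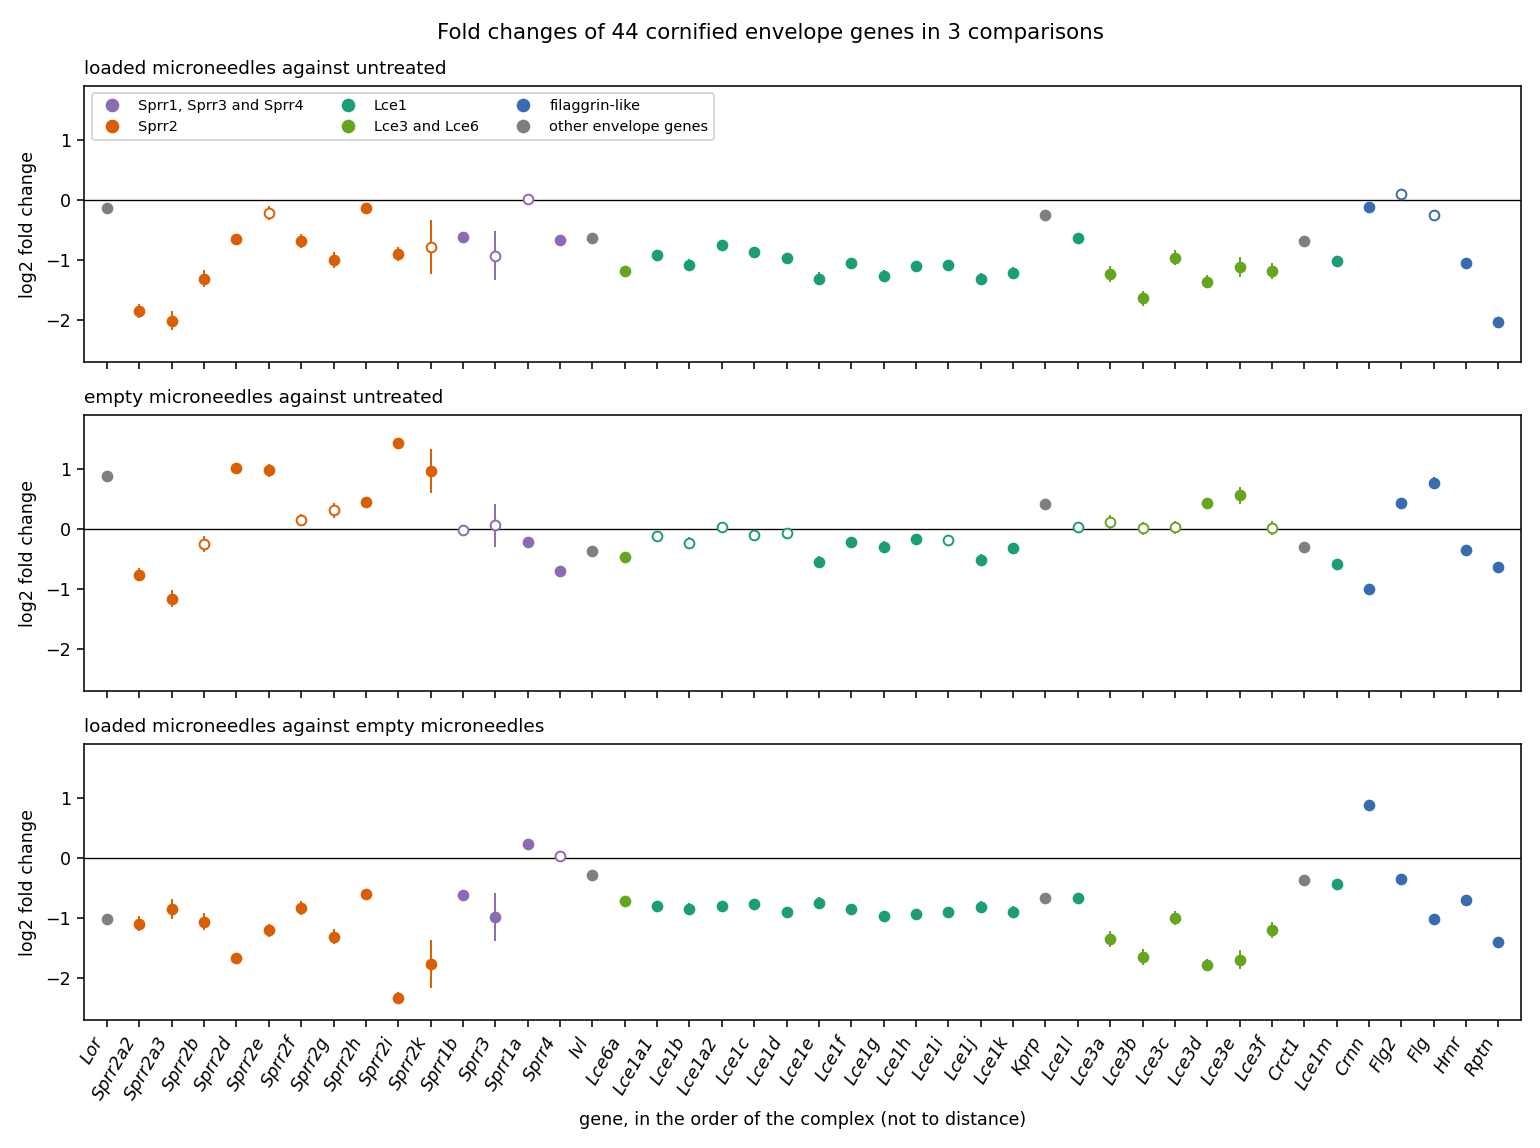
Log2 fold change ± SE of each of the 44 tested genes in 3 comparisons, with genes placed in their order along the complex and coloured by subgroup; filled points passed the test and open points did not. In both comparisons of loaded microneedles nearly all points lie under 0, with Crnn the main exception against empty microneedles, whereas empty against untreated runs from −1.16 (Sprr2a3) to 1.43 (Sprr2i).

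The subgroups differed in how far they fell. For loaded against untreated the median was −1.19 in the Lce3 and Lce6 genes, −1.06 in Lce1 and −0.84 in Sprr2. It was −0.64 in Sprr1, Sprr3 and Sprr4, −0.44 in the 4 other genes and −0.25 in the filaggrin-like genes. The filaggrin-like genes ran from −2.03 (Rptn) to 0.10 (Flg2), so their median does not stand for each of them. All 21 Lce genes were called lower, 15 of them by at least 2-fold, compared with 10 of 14 tested Sprr genes and 3 of 5 filaggrin-like genes. Over all tested genes 23.3% were called lower, and 1.60% by at least 2-fold. For loaded against empty the medians were −1.35 in Lce3 and Lce6, −1.15 in Sprr2, −0.82 in Lce1, −0.70 in the filaggrin-like genes, −0.52 in the other genes and −0.29 in Sprr1, Sprr3 and Sprr4. Differences between subgroups were not tested.

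Summed levels follow the most abundant members. Lce1 genes summed to 2551 ± 192 CPM (mean ± SD, n = 3) in untreated skin, 2117 ± 134 with empty and 1285 ± 43.4 with loaded microneedles. Sprr2 genes summed to 183 ± 14.5, 155 ± 13.8 and 73.3 ± 5.85 CPM, and Lce3 with Lce6 to 146 ± 13.8, 113 ± 9.08 and 63.9 ± 2.69 CPM. In these 3 subgroups, and also in the filaggrin-like and the 4 other genes, the loaded libraries lay under all others. In Sprr1, Sprr3 and Sprr4 they did not. Filaggrin-like genes summed to 4860 ± 185, 5116 ± 452 and 3593 ± 42.1 CPM. The 4 other genes reached 3254 ± 79.0, 4579 ± 187 and 2623 ± 61.8 CPM, highest with empty microneedles, and Sprr1, Sprr3 and Sprr4 together 876 ± 29.1, 758 ± 45.0 and 793 ± 13.4 CPM. These sums carry no test.

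**Figure D2:**
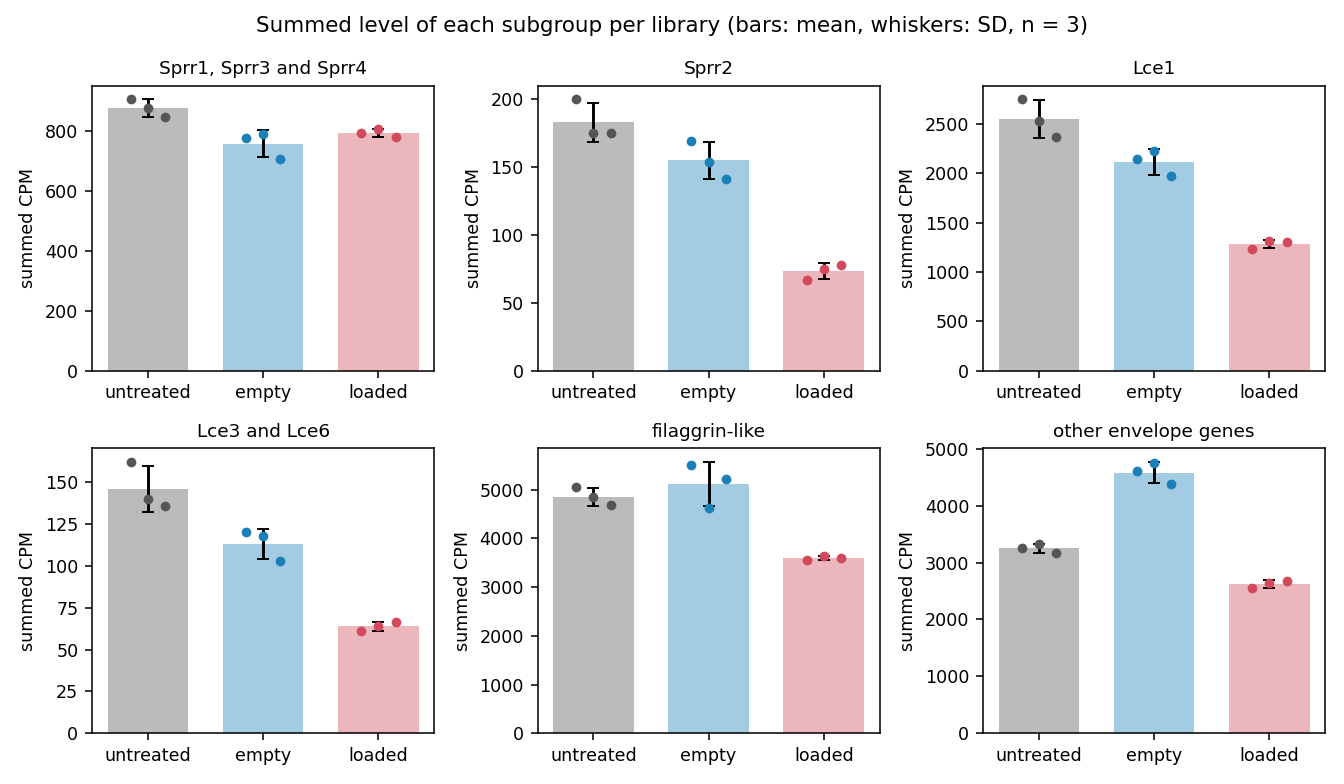
Summed CPM of each of the 6 subgroups in untreated skin and with empty or loaded microneedles; dots are the 3 libraries of a group, bars their mean and whiskers the SD. Lce1 falls from 2551 to 1285 between untreated and loaded, whereas the 4 other envelope genes peak at 4579 with empty microneedles.

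Levels of different genes were compared per kilobase of annotated exon (GENCODE M21 models). In untreated skin Lor led at 906 CPM per kb, followed by Lce1m at 770 and Sprr1a at 762, whose library ranges overlapped, then Lce1a1 at 648, Crnn at 566 and Crct1 at 556, where the ranges of Crct1 overlapped those of both Lce1a1 and Crnn. With empty microneedles Lor reached 1662, ahead of Sprr1a at 659, Lce1a1 at 597 and Lce1m at 516 CPM per kb, with the ranges of Sprr1a and Lce1a1 overlapping. With loaded microneedles Lor (820) and Sprr1a (774) led, followed by Crnn at 525, while Lce1m stood at 383, Crct1 at 348 and Lce1a1 at 343 CPM per kb, of which Crct1 and Lce1a1 overlapped. At the low end Sprr3, best known from oral and oesophageal epithelium, had 0.148 CPM per kb in untreated skin. The row of Sprr2a1 gave 0.0263, but its span overlaps that of Sprr2a2 on the same strand, so this value does not measure its level. Flg and Flg2 were left out of this order, because their annotated exons and their transcripts differ several-fold in length.

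**Figure D3:**
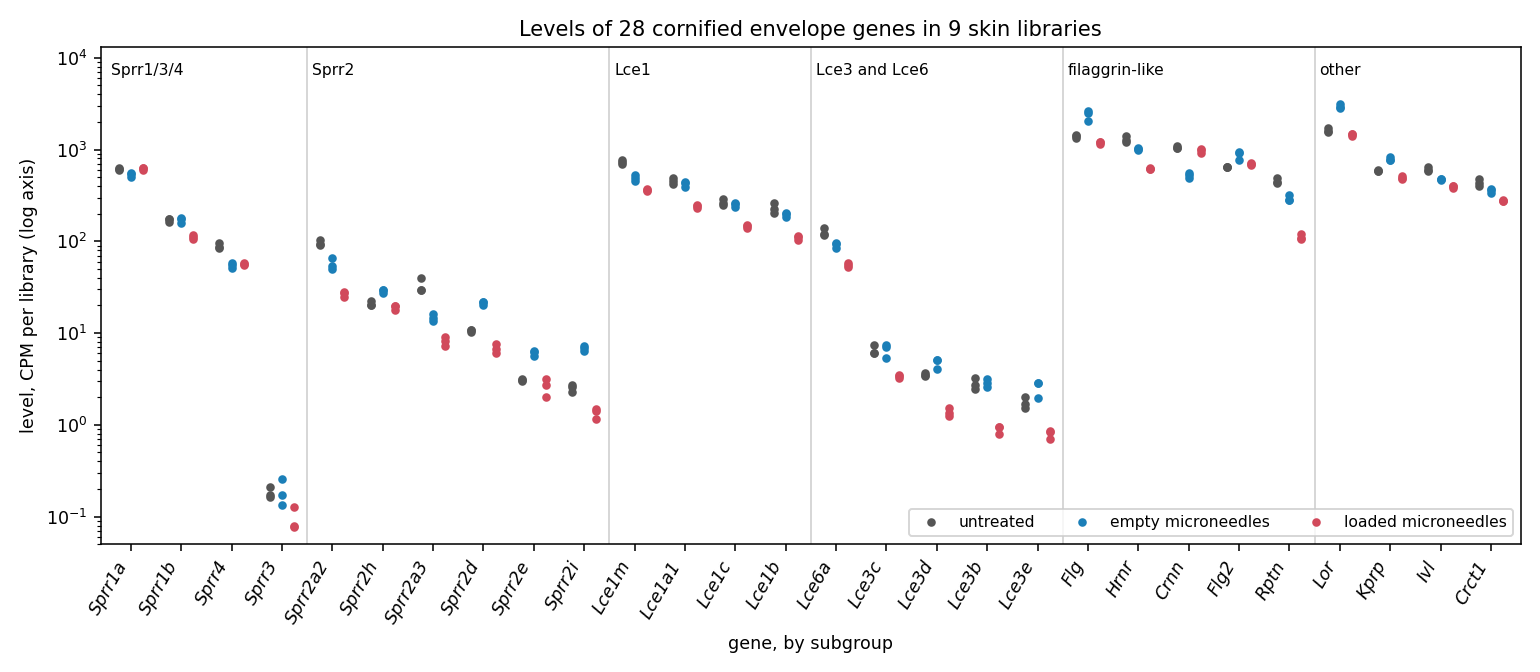
CPM of the 28 genes given with values, on a log axis, by subgroup; each dot is 1 library of untreated skin, empty or loaded microneedles. Loaded libraries are the lowest for nearly every Sprr2 and Lce gene, while Sprr1a, Crnn and Flg2 sit near their untreated level.

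Loricrin and 3 other envelope genes of the complex (Kprp, Ivl and Crct1) came out high with empty microneedles or low with both devices, depending on the gene. Lor (chr3:91987578-91990449) stood at 1537, 1699 and 1597 CPM in the untreated libraries, 2931, 3130 and 2810 CPM with empty microneedles and 1415, 1477 and 1481 CPM with loaded microneedles. All 3 empty libraries were far above the rest, and the loaded libraries lay just under the untreated ones without overlap. The log2 fold changes of Lor were 0.88 ± 0.042 for empty microneedles against untreated skin, −0.14 ± 0.042 for loaded against untreated and −1.02 ± 0.042 for loaded against empty, at adjusted p-values of 1.37e-15, 0.00582 and 1.33e-16. The small fall with loaded microneedles was lost with scaling by library size alone (−0.01, adjusted p = 0.84) and without untreated library 2 (adjusted p = 0.0755) or loaded library 1 (adjusted p = 0.052). Kprp, which encodes keratinocyte proline-rich protein, took the same order at 586, 601 and 585 CPM in the untreated libraries, 829, 764 and 772 CPM with empty microneedles and 482, 488 and 519 CPM with loaded microneedles. Log2 fold changes of Kprp were 0.42 ± 0.037 for empty microneedles against untreated skin, −0.25 ± 0.037 for loaded against untreated and −0.67 ± 0.037 for loaded against empty, at adjusted p-values of 1.55e-10, 2.18e-06 and 1.79e-14.

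Ivl encodes involucrin, the early scaffold. It had 649, 598 and 589 CPM in the untreated libraries, 484, 482 and 465 CPM with empty microneedles and 385, 397 and 399 CPM with loaded microneedles. Untreated libraries were highest, loaded lowest, and no groups overlapped. Its log2 fold changes came to −0.36 ± 0.036 (empty against untreated, adjusted p = 1.76e-09), −0.64 ± 0.036 (loaded against untreated, adjusted p = 5.16e-14) and −0.28 ± 0.036 (loaded against empty, adjusted p = 3.08e-07). Crct1, a small cysteine-rich gene between the Lce3 and Lce1m genes, ran in the same order at 483, 434 and 404 CPM in the untreated libraries, 359, 376 and 335 CPM with empty microneedles and 272, 282 and 272 CPM with loaded microneedles. For Crct1 the values were −0.30 ± 0.059 (empty against untreated, adjusted p = 0.000941), −0.68 ± 0.059 (loaded against untreated, adjusted p = 1.29e-06) and −0.37 ± 0.059 (loaded against empty, adjusted p = 0.000224). Loricrin and involucrin thus moved in opposite directions with empty microneedles.

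Among Sprr1, Sprr3 and Sprr4 there was no common course. Sprr1a, a crosslinked bridge protein and the most abundant Sprr gene, had 632, 613 and 598 CPM in the untreated libraries, 541, 555 and 497 CPM with empty microneedles and 631, 636 and 606 CPM with loaded microneedles. Empty libraries were the lowest, and loaded and untreated libraries overlapped. In the test it gave −0.21 ± 0.038 for empty microneedles against untreated skin, 0.02 ± 0.038 for loaded against untreated and 0.23 ± 0.038 for loaded against empty, at adjusted p-values of 3.83e-05, 0.67 and 1.06e-05, so it rose between empty and loaded where almost all other genes fell. With scaling by library size alone Sprr1a was called higher in loaded than in untreated skin (0.16, adjusted p = 0.000444). Sprr1b, its close relative, instead stood at 177, 175 and 164 CPM in the untreated libraries, 180, 177 and 158 CPM with empty microneedles and 106, 112 and 117 CPM with loaded microneedles. Only the loaded libraries were set apart. Sprr1b had log2 fold changes of −0.01 ± 0.046 for empty microneedles against untreated skin, −0.62 ± 0.047 for loaded against untreated and −0.62 ± 0.047 for loaded against empty, at adjusted p-values of 0.935, 4.47e-09 and 3.40e-09.

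Sprr4 was lower with either device, at 96.3, 87.5 and 84.9 CPM in the untreated libraries, 55.9, 57.7 and 51.7 CPM with empty microneedles and 55.8, 57.4 and 56.5 CPM with loaded microneedles. Empty and loaded libraries overlapped. Its log2 fold changes were −0.70 ± 0.043 (empty against untreated, adjusted p = 1.46e-11), −0.66 ± 0.043 (loaded against untreated, adjusted p = 8.12e-11) and 0.04 ± 0.044 (loaded against empty, adjusted p = 0.551). Sprr3 was barely detected, at 0.17, 0.212 and 0.162 CPM in the untreated libraries, 0.173, 0.133 and 0.259 CPM with empty microneedles and 0.0783, 0.0767 and 0.128 CPM with loaded microneedles. At 7 to 25 counts per library its log2 fold changes were 0.06 ± 0.36 (empty against untreated, adjusted p = 0.919), −0.93 ± 0.41 (loaded against untreated, adjusted p = 0.0708) and −0.98 ± 0.40 (loaded against empty, adjusted p = 0.0497). The call between the devices rests on few counts and was lost under 13 alternatives, with adjusted p-values up to 0.241 (without empty library 3).

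The Sprr2 genes showed the widest split. Sprr2a2 and Sprr2a3 fell with empty microneedles, Sprr2d, Sprr2e, Sprr2h, Sprr2i and Sprr2k rose, and Sprr2b, Sprr2f and Sprr2g did not pass. All 10 tested Sprr2 genes were then lower with loaded than with empty microneedles, 7 of them by at least 2-fold. Over all tested genes 20.2% rose and 28.1% fell with empty microneedles. Between the devices 18.5% were lower with the loaded one, 1.17% by at least 2-fold. The promoters are shown because Sprr2a2 and Sprr2a3, which fell, differ there from the Sprr2 genes that rose. The windows of Sprr2a2 and Sprr2a3 are themselves 79.9% alike, so they are hardly separate cases. Any link between the window and the course of a gene was not tested. The 250 bases before the RefSeq start (GRCm38.p6, a build other than that of the counts) are given for 2 genes that rose and 2 that fell, 5′ to 3′ on the gene's strand, with matches to the AP-1 motif TGANTCA in capitals.
Sprr2d, chr3:92338890-92339139, plus strand: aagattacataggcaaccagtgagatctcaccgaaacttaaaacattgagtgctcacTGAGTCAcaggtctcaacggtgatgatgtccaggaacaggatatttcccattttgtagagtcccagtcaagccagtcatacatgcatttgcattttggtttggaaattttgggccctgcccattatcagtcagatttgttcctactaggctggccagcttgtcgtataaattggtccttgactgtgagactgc
Sprr2i, chr3:92407741-92407990, plus strand: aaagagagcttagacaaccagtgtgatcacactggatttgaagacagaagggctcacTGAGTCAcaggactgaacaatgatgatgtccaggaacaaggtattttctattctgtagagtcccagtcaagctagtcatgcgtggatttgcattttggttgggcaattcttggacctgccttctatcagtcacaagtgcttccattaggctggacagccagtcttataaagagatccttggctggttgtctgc
Sprr2a2, chr3:92250397-92250646, plus strand: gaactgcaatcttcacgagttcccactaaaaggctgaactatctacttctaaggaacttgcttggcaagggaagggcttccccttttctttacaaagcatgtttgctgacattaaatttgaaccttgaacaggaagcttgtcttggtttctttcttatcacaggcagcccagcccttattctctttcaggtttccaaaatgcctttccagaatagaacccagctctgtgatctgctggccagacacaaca
Sprr2a3, chr3:92285054-92285303, plus strand: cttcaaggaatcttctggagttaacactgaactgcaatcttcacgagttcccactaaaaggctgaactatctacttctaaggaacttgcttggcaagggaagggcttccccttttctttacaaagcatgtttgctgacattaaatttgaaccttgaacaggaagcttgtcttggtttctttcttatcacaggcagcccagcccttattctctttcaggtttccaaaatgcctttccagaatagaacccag

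AP-1 is a pair of Jun and Fos family proteins and a known activator of envelope genes. Its motif was searched on both strands as TGANTCA, which leaves the middle base free and so is looser than TGAGTCA or TGACTCA. It was found in 7 of the 10 Sprr2 windows, and in 6.75% of the 32851 windows of that length in the table. The 7 were Sprr2b, Sprr2d, Sprr2e, Sprr2f, Sprr2h, Sprr2i and Sprr2k, each with a match 193 to 198 bases before the start and a TATAAA 29 bases before it. Of these 7, 5 rose with empty microneedles and 2 did not pass. The 7 windows matched one another at 58.8% to 89.3% of aligned positions, so they too are hardly separate cases. Sprr2a1, Sprr2a2 and Sprr2a3 held neither motif in the window. The windows of Sprr2a1 and Sprr2a2 were identical, and Sprr2a2 matched Sprr2d at 45.5% of aligned positions, while Sprr2d and Sprr2e matched at 89.3% and Sprr2d and Sprr2i at 76.9%. For scale, the windows of Lor and Ivl, genes of different families, matched at 45.7%. A match describes letters in the window, not a bound site, and no match says only that the letters are not in it. Sprr2g had no entry.

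Sprr2i was at 2.58, 2.28 and 2.71 CPM in the untreated libraries, 7.18, 6.86 and 6.35 CPM with empty microneedles and 1.4, 1.16 and 1.5 CPM with loaded microneedles. Empty libraries lay above and loaded libraries below all untreated ones. Sprr2i rose 2.69-fold with empty microneedles against untreated skin. Its log2 fold changes were 1.43 ± 0.093 for empty microneedles against untreated skin, −0.90 ± 0.11 for loaded against untreated and −2.33 ± 0.10 for loaded against empty, at adjusted p-values of 3.01e-13, 2.03e-07 and 1.57e-16. Sprr2d gave 10.8, 10.7 and 10.4 CPM in the untreated libraries, 22.1, 22 and 20.3 CPM with empty microneedles and 6.05, 6.67 and 7.56 CPM with loaded microneedles, again with the 3 groups apart. For Sprr2d the log2 fold changes were 1.01 ± 0.060 for empty microneedles against untreated skin, −0.65 ± 0.066 for loaded against untreated and −1.67 ± 0.062 for loaded against empty, at adjusted p-values of 6.28e-14, 4.75e-09 and 1.45e-17. Sprr2e gave 2.99, 3.15 and 3.06 CPM in the untreated libraries, 6.27, 6.33 and 5.59 CPM with empty microneedles and 2.01, 2.72 and 3.15 CPM with loaded microneedles. The loaded and untreated libraries of Sprr2e overlapped, with log2 fold changes of 0.98 ± 0.11 (empty against untreated, adjusted p = 5.01e-08), −0.22 ± 0.12 (loaded against untreated, adjusted p = 0.147) and −1.20 ± 0.11 (loaded against empty, adjusted p = 2.96e-09). Without loaded library 3 the difference of Sprr2e from untreated skin passed (−0.37, adjusted p = 0.0131). Sprr2h, at 22.3, 20.4 and 20 CPM in the untreated libraries, 29.3, 29.3 and 27.4 CPM with empty microneedles and 17.9, 19.6 and 19.6 CPM with loaded microneedles, also stood highest with empty microneedles. Its log2 fold changes were 0.45 ± 0.048 (empty against untreated, adjusted p = 4.91e-09), −0.13 ± 0.049 (loaded against untreated, adjusted p = 0.0283) and −0.59 ± 0.048 (loaded against empty, adjusted p = 4.39e-11). The small fall of Sprr2h against untreated skin was lost under 7 alternatives, among them DESeq2 (adjusted p = 0.0787) and leaving out untreated library 1 or loaded library 1 (adjusted p = 0.184 and 0.199).

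In contrast, Sprr2a3 fell in 2 steps, with 39.7, 29.8 and 29.6 CPM in the untreated libraries, 16.1, 14.7 and 13.6 CPM with empty microneedles and 7.23, 8.1 and 9.17 CPM with loaded microneedles. None of the 3 groups overlapped. The log2 fold changes of Sprr2a3 were −1.16 ± 0.15 for empty microneedles against untreated skin, −2.01 ± 0.15 for loaded against untreated and −0.85 ± 0.16 for loaded against empty, at adjusted p-values of 0.000495, 4.39e-05 and 0.00478. Sprr2a2 had the same order at 103, 91.2 and 93.9 CPM in the untreated libraries, 66.2, 53.7 and 50.2 CPM with empty microneedles and 24.5, 27.8 and 27.4 CPM with loaded microneedles. For Sprr2a2 the log2 fold changes were −0.76 ± 0.11 for empty microneedles against untreated skin, −1.85 ± 0.12 for loaded against untreated and −1.09 ± 0.12 for loaded against empty, at adjusted p-values of 0.00128, 1.81e-05 and 0.000305, 3.61-fold lower with loaded microneedles than in untreated skin. These copies cannot be counted apart with certainty. Of the 50-base stretches of the Sprr2a2 transcript 96.5% also occur in another gene, Sprr2a1 above all, and 61.1% of those of Sprr2a3. The annotated span of Sprr2a2 also covers Sprr2a1, whose own row held only 2 to 8 counts per library and was not tested. The other Sprr2 genes share 0% to 13.7% of such stretches.

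**Figure D4:**
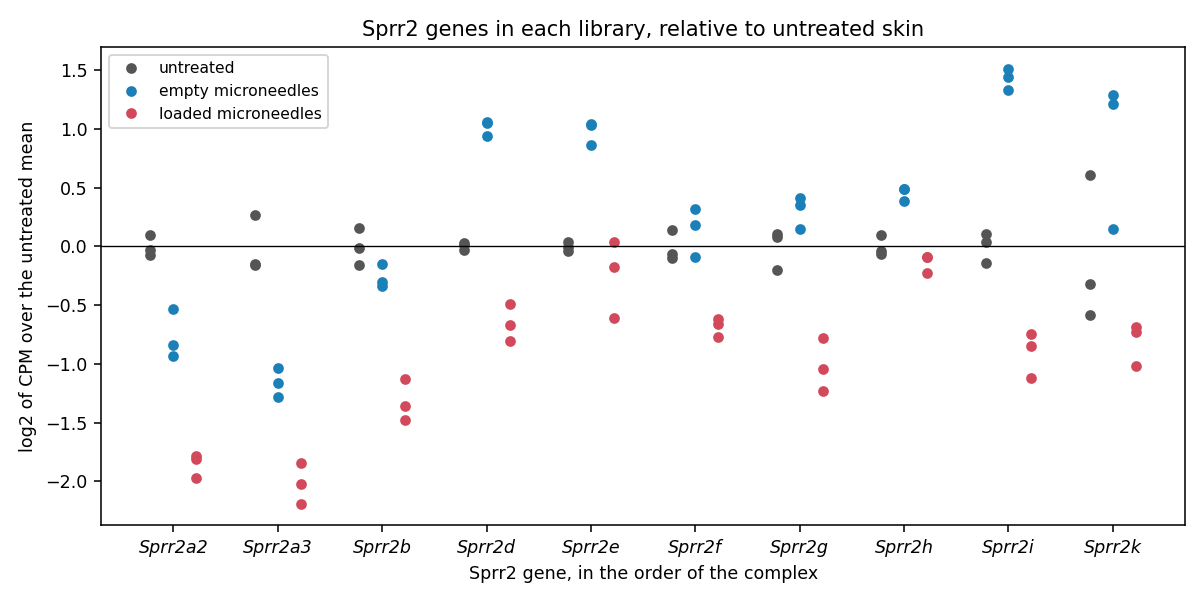
Log2 of CPM over the untreated mean for the 10 tested Sprr2 genes in each of 9 libraries. Empty-microneedle libraries lie near 1 for Sprr2d and Sprr2e and near 1.4 for Sprr2i but under 0 for Sprr2a2 and Sprr2a3, and loaded libraries are the lowest for each gene except that those of Sprr2e overlap untreated skin.

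The 14 Lce1 genes, expressed late in normal epidermis, moved together with loaded microneedles. All 14 fell against untreated skin, by 0.64 to 1.31 on the log2 scale, and all 14 fell against empty microneedles, by 0.43 to 0.97. With empty microneedles 7 fell, 7 did not pass and 0 rose by edgeR (10 lower and 0 higher at an unadjusted p under 0.05), in a range from −0.58 to 0.04. Over all tested genes 28.1% were called lower and 20.2% higher in that comparison. Lce1m, the most abundant and set apart from the other Lce1 genes in the complex, had 772, 729 and 691 CPM in the untreated libraries, 485, 527 and 459 CPM with empty microneedles and 355, 369 and 367 CPM with loaded microneedles. The 3 groups were apart and fell in that order. Log2 fold changes of Lce1m were −0.58 ± 0.045 for empty microneedles against untreated skin, −1.01 ± 0.046 for loaded against untreated and −0.43 ± 0.045 for loaded against empty, at adjusted p-values of 8.54e-10, 3.46e-13 and 9.19e-08. The next was Lce1a1 at 489, 459 and 423 CPM in the untreated libraries, 428, 442 and 393 CPM with empty microneedles and 231, 249 and 245 CPM with loaded microneedles. Empty and untreated libraries of Lce1a1 overlapped, and its log2 fold changes were −0.12 ± 0.053 for empty microneedles against untreated skin, −0.92 ± 0.053 for loaded against untreated and −0.80 ± 0.053 for loaded against empty, at adjusted p-values of 0.0849, 2.47e-09 and 7.92e-09.

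Lce1c ran at 290, 265 and 248 CPM in the untreated libraries, 255, 260 and 235 CPM with empty microneedles and 141, 147 and 152 CPM with loaded microneedles. Its empty and untreated libraries overlapped, and the loaded ones lay well under both. The log2 fold changes of Lce1c were −0.10 ± 0.054 (empty against untreated, adjusted p = 0.16), −0.87 ± 0.055 (loaded against untreated, adjusted p = 1.46e-08) and −0.77 ± 0.055 (loaded against empty, adjusted p = 3.78e-08). Lce1b stood at 259, 226 and 204 CPM in the untreated libraries, 200, 203 and 184 CPM with empty microneedles and 103, 113 and 112 CPM with loaded microneedles. For Lce1b they were −0.23 ± 0.090 (empty against untreated, adjusted p = 0.0736), −1.08 ± 0.092 (loaded against untreated, adjusted p = 5.12e-05) and −0.84 ± 0.092 (loaded against empty, adjusted p = 0.000194). Without untreated library 3 Lce1a1, Lce1b and Lce1c were called lower with empty microneedles than in untreated skin, at adjusted p-values of 0.00305, 0.000608 and 0.00844. The other 10 Lce1 genes lay between −1.31 (Lce1e and Lce1j) and −0.64 (Lce1l) for loaded against untreated. Lce1 genes share up to 27.1% of 50-base stretches with others, and Lce1m shares 0%.

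Lce3 genes are known from repair of a damaged skin barrier, and they were scarce here, under 8 CPM in every library. All 6 and Lce6a fell with loaded microneedles against both other groups, whereas with empty microneedles Lce3d and Lce3e rose, Lce6a fell and 4 did not pass. With empty microneedles 20.2% of all tested genes were called higher and 28.1% lower, so these few calls do not set the subgroup apart. Lce3d had 3.43, 3.47 and 3.65 CPM in the untreated libraries, 5.06, 5.07 and 4.07 CPM with empty microneedles and 1.26, 1.51 and 1.34 CPM with loaded microneedles, with all 3 groups apart. On the log2 scale Lce3d gave 0.43 ± 0.094 for empty microneedles against untreated skin, −1.36 ± 0.11 for loaded against untreated and −1.78 ± 0.11 for loaded against empty, at adjusted p-values of 0.00036, 7.05e-11 and 7.55e-14. Lce3e had 2.01, 1.69 and 1.52 CPM in the untreated libraries, 2.84, 2.89 and 1.98 CPM with empty microneedles and 0.693, 0.833 and 0.863 CPM with loaded microneedles. The lowest empty library of Lce3e lay within the untreated range, and its log2 fold changes were 0.56 ± 0.14 for empty microneedles against untreated skin, −1.12 ± 0.16 for loaded against untreated and −1.69 ± 0.15 for loaded against empty, at adjusted p-values of 0.00145, 2.74e-06 and 8.33e-10.

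Lce3b dropped furthest of the Lce genes against untreated skin, with 3.27, 2.74 and 2.49 CPM in the untreated libraries, 2.56, 3.14 and 2.84 CPM with empty microneedles and 0.805, 0.954 and 0.959 CPM with loaded microneedles. Its empty and untreated libraries overlapped. Log2 fold changes of Lce3b were 0.01 ± 0.11 (empty against untreated, adjusted p = 0.955), −1.64 ± 0.13 (loaded against untreated, adjusted p = 5.18e-11) and −1.65 ± 0.13 (loaded against empty, adjusted p = 2.17e-11), 3.12-fold lower with loaded microneedles than untreated. Lce3c gave 7.47, 6.13 and 6.04 CPM in the untreated libraries, 7.49, 7.13 and 5.38 CPM with empty microneedles and 3.37, 3.22 and 3.47 CPM with loaded microneedles, the same pattern. For Lce3c the values were 0.03 ± 0.11 (empty against untreated, adjusted p = 0.873), −0.96 ± 0.12 (loaded against untreated, adjusted p = 5.93e-06) and −0.99 ± 0.12 (loaded against empty, adjusted p = 3.35e-06). Lce6a, the one abundant gene among them, had 140, 121 and 118 CPM in the untreated libraries, 95.5, 94.5 and 83.7 CPM with empty microneedles and 52.8, 55.6 and 57.5 CPM with loaded microneedles, with no overlap. Tests gave Lce6a −0.47 ± 0.076 (empty against untreated, adjusted p = 0.000962), −1.19 ± 0.078 (loaded against untreated, adjusted p = 3.40e-06) and −0.72 ± 0.078 (loaded against empty, adjusted p = 8.51e-05). Lce3c, Lce3d, Lce3e and Lce3f share 35.7% to 49.3% of their 50-base stretches with one another or other genes, so a split of counts among them is uncertain.

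None of the 13 Lce1 and 7 Lce3 and Lce6 windows with a RefSeq entry held TGANTCA (0 of 20). The motif is in 6.75% of all windows, so 0 of 20 does not set these windows apart. TATAAA, searched on both strands, was in 4 of them, against 12.4% of all windows. It lay 30 bases before the start in Lce1d and 29 in Lce1m. In Lce6a and Lce3e it was on the other strand, 218 and 243 bases before the start. The 150 bases before the start of the most abundant Lce1 gene and of the Lce3 gene that fell most against empty microneedles are shown as examples of windows without the AP-1 motif.
Lce1m, chr3:93019062-93019211, minus strand: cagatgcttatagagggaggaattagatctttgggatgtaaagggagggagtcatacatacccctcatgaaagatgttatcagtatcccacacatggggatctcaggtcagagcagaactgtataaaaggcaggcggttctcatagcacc
Lce3d, chr3:92957240-92957389, plus strand: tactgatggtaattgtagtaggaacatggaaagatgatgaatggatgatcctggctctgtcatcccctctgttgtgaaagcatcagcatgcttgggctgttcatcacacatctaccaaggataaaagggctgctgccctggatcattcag

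The 5 filaggrin-like genes split into 2 that rose with empty microneedles (Flg and Flg2) and 3 that fell (Crnn, Rptn and Hrnr). All 5 kept their groups apart in each comparison, as did 50.8% to 54.6% of all tested genes. Flg, the filaggrin precursor, had 1421, 1451 and 1353 CPM in the untreated libraries, 2649, 2038 and 2518 CPM with empty microneedles and 1147, 1204 and 1204 CPM with loaded microneedles. Empty libraries were high and the most scattered, and loaded libraries lay under untreated ones without overlap. Its log2 fold changes were 0.77 ± 0.090 for empty microneedles against untreated skin, −0.25 ± 0.090 for loaded against untreated and −1.02 ± 0.091 for loaded against empty, at adjusted p-values of 0.000165, 0.0611 and 3.58e-05. The difference between loaded and untreated skin did not pass here but did under 8 alternatives, among them DESeq2 (adjusted p = 0.036), limma-voom (adjusted p = 0.00262) and leaving out empty library 1 or 2 (adjusted p = 0.00976 and 1.05e-06). Flg2 had 654, 646 and 649 CPM in the untreated libraries, 947, 771 and 923 CPM with empty microneedles and 692, 684 and 708 CPM with loaded microneedles. It was the one gene of the set whose loaded libraries all lay above the untreated ones. For Flg2 the log2 fold changes were 0.44 ± 0.060 for empty microneedles against untreated skin, 0.10 ± 0.060 for loaded against untreated and −0.34 ± 0.060 for loaded against empty, at adjusted p-values of 4.54e-05, 0.238 and 0.000461. The difference between loaded and untreated skin was called without empty library 2 (adjusted p = 0.01) and under 3 other alternatives.

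Hrnr, which encodes hornerin, had 1393, 1272 and 1217 CPM in the untreated libraries, 1051, 978 and 1008 CPM with empty microneedles and 616, 617 and 636 CPM with loaded microneedles, stepping down without overlap. The log2 fold changes of Hrnr were −0.35 ± 0.041 (empty against untreated, adjusted p = 4.56e-08), −1.05 ± 0.042 (loaded against untreated, adjusted p = 1.42e-16) and −0.70 ± 0.041 (loaded against empty, adjusted p = 1.96e-13). Rptn, which encodes repetin, made the deepest fall of the 44 genes against untreated skin, with 487, 443 and 429 CPM in the untreated libraries, 322, 279 and 279 CPM with empty microneedles and 105, 109 and 119 CPM with loaded microneedles. These are log2 fold changes of −0.63 ± 0.074 (empty against untreated, adjusted p = 8.02e-05), −2.03 ± 0.077 (loaded against untreated, adjusted p = 3.28e-08) and −1.40 ± 0.076 (loaded against empty, adjusted p = 3.39e-07), 4.08-fold lower with loaded microneedles than in untreated skin. The span of the predicted antisense gene Gm37245 covers both Hrnr and Rptn. Counting over whole spans without strand would lose their reads or also count them for Gm37245. Over all libraries Hrnr had 789531 counts, Rptn 229452 and Gm37245 64711, so most of their reads were kept apart from it. The row of Gm37245 had log2 fold changes of −0.52 (empty against untreated), 0.23 (loaded against untreated) and 0.75 (loaded against empty), called in all 3 comparisons. The share of reads it has in common with Hrnr and Rptn was not tested. Crnn, which encodes cornulin, did the reverse of Flg at 1096, 1036 and 1033 CPM in the untreated libraries, 534, 554 and 493 CPM with empty microneedles and 992, 1021 and 926 CPM with loaded microneedles. Empty libraries lay far below both other groups, and loaded libraries were close to untreated. For Crnn the values were −1.0 ± 0.043 (empty against untreated, adjusted p = 1.52e-15), −0.11 ± 0.042 (loaded against untreated, adjusted p = 0.043) and 0.89 ± 0.043 (loaded against empty, adjusted p = 1.55e-14). The small fall of Crnn against untreated skin was lost under 10 alternatives and turned to 0.03 with scaling by library size alone. Leaving out untreated library 1 or 2, empty library 1, or loaded library 1 or 3 was enough to lose it (adjusted p = 0.0544 to 0.259).

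The filaggrin-like genes differed in course, and most of their promoter windows hold a match to the loose pattern TGANTCA. Such matches were found in Flg, Flg2, Crnn and Rptn (4 of 5), and also in Lor and Ivl, Sprr1a and Sprr1b. The letters were TGAATCA in Flg, Flg2, Crnn and Sprr1b and TGATTCA in Rptn. They were TGAGTCA in Lor and Sprr1a and TGACTCA in Ivl. No filaggrin-like window held TGAGTCA or TGACTCA. Over all 41 genes with an entry the share was 36.6%. The 150 bases before the start are shown for Lor and Flg, which rose with empty microneedles, and for Crnn and Rptn, which fell, with the match in capitals.
Lor, chr3:92083143-92083292, minus strand: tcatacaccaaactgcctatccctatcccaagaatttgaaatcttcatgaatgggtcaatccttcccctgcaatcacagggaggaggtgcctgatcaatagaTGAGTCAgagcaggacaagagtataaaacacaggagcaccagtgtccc
Flg, chr3:93273396-93273545, plus strand: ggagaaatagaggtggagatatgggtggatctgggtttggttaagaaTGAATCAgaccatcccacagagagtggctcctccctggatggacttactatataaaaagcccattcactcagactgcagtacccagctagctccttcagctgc
Crnn, chr3:93144639-93144788, plus strand: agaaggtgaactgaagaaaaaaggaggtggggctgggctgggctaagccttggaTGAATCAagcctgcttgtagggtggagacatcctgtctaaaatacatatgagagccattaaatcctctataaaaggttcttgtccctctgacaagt
Rptn, chr3:93393549-93393698, plus strand: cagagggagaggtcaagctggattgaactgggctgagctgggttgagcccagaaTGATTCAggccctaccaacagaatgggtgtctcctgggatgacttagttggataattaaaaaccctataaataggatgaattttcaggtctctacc
The match lay 48 bases before the start in Lor, 103 in Flg, and 96 in both Crnn and Rptn. A match was thus present both in genes that rose and in genes that fell. Kprp and Crct1 had no entry.

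Ratios between genes of 1 library do not depend on its scaling. The ratio of Flg to Crnn counts was 1.30, 1.40 and 1.31 in untreated libraries, 4.96, 3.68 and 5.10 with empty and 1.16, 1.18 and 1.30 with loaded microneedles. Untreated and loaded libraries lay close together, and the empty ones stood alone. Flg to Rptn was 2.92, 3.27 and 3.15 in untreated libraries, 8.22, 7.31 and 9.01 with empty and 10.9, 11.1 and 10.1 with loaded microneedles, so it was higher in the libraries of both devices. Lor to Ivl averaged 2.64 ± 0.24 (SD, n = 3) in untreated skin, 6.20 ± 0.26 with empty and 3.70 ± 0.026 with loaded microneedles. Sprr2d to Sprr2a2 averaged 0.111, 0.383 and 0.254, and Sprr2i to Sprr2a3 0.0778, 0.460 and 0.167. Each of the last 3 ratios was lowest in untreated and highest in empty-microneedle libraries, without overlap. The pairs were chosen after the values were seen, and no test was made.

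**Figure D5:**
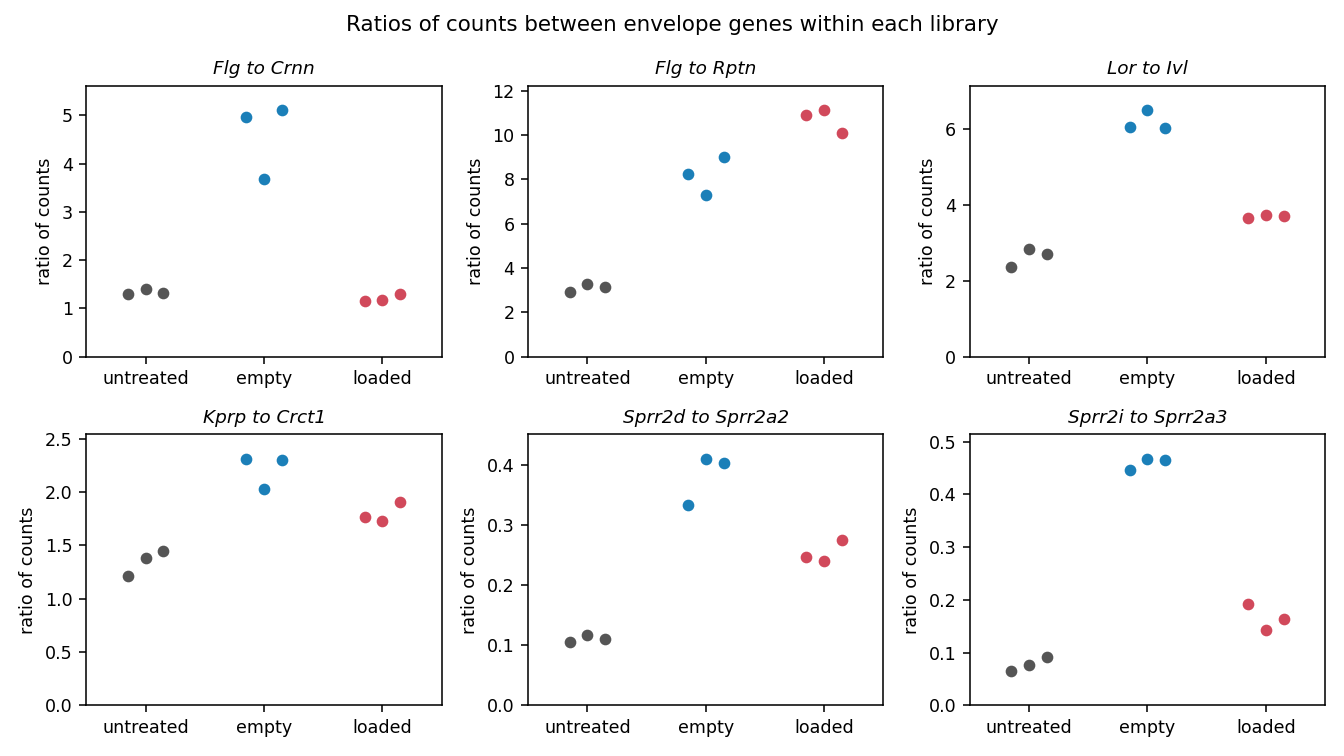
Ratio of counts between pairs of envelope genes within each library, by group, on axes that start at 0; each dot is 1 library. Flg to Crnn is high only with empty microneedles (3.68 to 5.10), whereas Flg to Rptn is higher with both devices than in untreated skin.

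For comparison, the interval holds other genes. For these and for the lists below, the shares of all tested genes called in each comparison are those given above. Of 38 further genes there 21 were tested, mostly predicted genes, and for loaded against untreated 9 fell and 2 rose, and the median was −0.47. Between loaded and empty microneedles 8 fell and 2 rose, and the median was −0.11. The pseudogene Sprr2j-ps, named after its values were seen, lies beside Sprr2i and had log2 fold changes of 1.20 (empty against untreated), −0.51 (loaded against untreated) and −1.71 (loaded against empty). Of 19 tested S100, peptidoglycan recognition and other genes of the wider complex, 13 fell and 3 rose for loaded against untreated, 14 fell and 0 rose for empty against untreated by edgeR, and 8 fell and 9 rose for loaded against empty. In that last comparison Tchh, which encodes trichohyalin of the inner root sheath, was higher by 0.80 and S100a3 by 0.73.

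Enzymes and partners of the envelope lie mostly outside the complex. In a list of 22 crosslinking, lipid and junction genes, 21 were tested. Of these 12 rose and 8 fell with empty microneedles, 4 rose and 10 fell for loaded against untreated, and 2 rose and 19 fell for loaded against empty. Aloxe3 and Alox12b, lipoxygenases of the lipid envelope, rose by 0.93 and 0.56 with empty microneedles and were lower by 0.87 and 0.54 with loaded than with empty ones (log2 fold changes −0.87 and −0.54). Tgm5, a transglutaminase that crosslinks the envelope, fell by 0.92 for loaded against untreated. The other listed transglutaminases differed in that comparison. Tgm2 fell (−0.34), Tgm1 was called slightly higher (0.08, adjusted p = 0.0473) and Tgm3 did not pass (0.08, adjusted p = 0.0668). Of 18 genes that process filaggrin or its products, 11 fell and 6 rose for loaded against untreated and 13 fell and 4 rose for loaded against empty, while 10 fell and 6 rose with empty microneedles. Casp14, the protease of filaggrin breakdown, rose by 0.76 with empty microneedles and was lower with loaded than with empty ones (−1.20), and Asprv1, which cuts profilaggrin, fell by 1.02 for loaded against untreated. Klk7, a protease that frees dead surface cells, had −0.57 with empty and −1.03 with loaded microneedles against untreated skin.

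Of 34 known regulators of the complex 24 rose and 5 fell with empty microneedles, 17 rose and 8 fell for loaded against untreated, and 4 rose and 16 fell for loaded against empty. Grhl3 and Klf4, transcription factors needed for the skin barrier, rose by 0.46 and 0.41 with empty microneedles, and Grhl3 was lower by 0.44 with loaded than with empty ones (log2 fold change −0.44). Jun, a part of AP-1, rose by 0.38 with empty and 0.20 with loaded microneedles against untreated skin, and Fos, which also rises as tissue is handled, rose by 0.99 with empty and 1.03 with loaded microneedles against untreated skin. Of 10 genes that respond to handling, 6 rose in each of these comparisons and 3 (empty) or 2 (loaded) fell. Of 10 NRF2 targets, NRF2 being a stress factor that can raise Sprr2 genes, 1 rose and 5 fell with empty microneedles and 4 rose and 4 fell with loaded ones against untreated skin. Their part in the envelope results was not tested.

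Markers of cell layers and of other cells moved as well, and their part was likewise not tested. Some genes stand in several lists, so the counts of the lists are not independent. Krtdap, Dsg1a, Dsc1 and Cdsn are both suprabasal markers and envelope partners. Tchh, Tchhl1, S100a3, S100a8 and S100a9 are also in the list of the wider complex, and Padi3 in that of filaggrin processing. Suprabasal keratinocyte markers, 12 of 14 tested with Calm4 listed at 0, summed to 43128 to 44345 CPM in untreated skin, 53526 to 55005 with empty and 31681 to 33904 with loaded microneedles. All 12 were lower with loaded than with empty microneedles, with Krt1 at −1.08 and Krt10 at −0.87. Against untreated skin, 7 rose, 4 fell and 1 did not pass with empty microneedles. Basal markers (10) summed to 14944 to 15665, 11593 to 12041 and 10851 to 11332 CPM, and 5 of them fell, 0 rose and 5 did not pass for loaded against untreated by edgeR. For empty against untreated 3 rose, 3 fell and 4 did not pass. Much of the fall in the sum lay in Krt14, with means of 7223 CPM in untreated skin, 4064 with empty and 3581 with loaded microneedles. Markers of injured or inflamed keratinocytes (14 of 15 tested) summed to 4466 to 4893, 2707 to 2984 and 2420 to 2461 CPM. Of these, 13 fell for loaded and 11 for empty against untreated, with Krt6a at −1.62 and −1.07 and Krt16 at −1.86 for loaded.

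Hair follicle markers were lowest with empty and highest with loaded microneedles. The 12 inner root sheath markers summed to 36160 to 37215 CPM in untreated skin, 23750 to 26946 with empty and 41268 to 44328 with loaded microneedles, and against untreated skin 11 of them fell and 1 rose with empty microneedles, while 10 rose and 0 fell with loaded ones. The 11 hair shaft markers summed to 5032 to 5102, 3260 to 3738 and 5970 to 6333 CPM, and 11 of them fell with empty microneedles while 9 rose and 0 fell with loaded ones. Sebocyte markers (9) summed to 361 to 384, 265 to 277 and 315 to 324 CPM. Markers of simple or mucosal epithelium (8) reached only 35.1 to 36.9, 25.7 to 27.4 and 30.0 to 31.3 CPM. Fibroblast markers (8) summed to 1599 to 1653, 1375 to 1480 and 1073 to 1106 CPM, skeletal muscle markers (8) to 7141 to 7360, 8947 to 10465 and 6519 to 6979 CPM, adipocyte markers (6) to 649 to 709, 380 to 421 and 701 to 726 CPM, and leukocyte markers (9 of 10 tested) to 61.9 to 62.3, 50.3 to 54.5 and 39.9 to 43.2 CPM. No marker of these lists was at 0 in every library.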

How the data were processed

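Skin RNA (Qiagen miRNeasy extraction) was turned into libraries by IDT's xGen Broad-Range chemistry, per the labels' protocols. HISAT2, featureCounts and the build mm39 are named in the submitters' processing notes, without versions. Annotation and strand setting are not given in the sources. The authors deposited raw, unscaled counts, per the file headers. The length that the deposited table gives equals the whole span for all 54377 genes with 1 span. Intron reads may therefore be counted, and overlapping genes (such as Sprr2a1 with Sprr2a2) can lose or gain counts. Hrnr and Rptn overlap Gm37245 on the other strand, and most of their reads were kept apart from it.

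Total counts were 85962714 to 96740589 per library. Replicates differed by more than counting error (chi-square per degree of freedom 2.31 to 10.1), so the spread between them sets the precision. Groups follow the treatment labels. Genes passing filterByExpr (minimum count 10, minimum total 15) were fitted with edgeR 4.0.16 in R 4.3.3, TMM scaling, 1 coefficient per group, all 9 libraries and the robust quasi-likelihood test, two-sided, with Benjamini-Hochberg adjustment. The fit was tested on simulated counts. Values are given for the 4 most abundant genes of each subgroup and, per comparison, the 3 highest and 3 lowest called log2 fold changes with a mean of at least 0.5 CPM. For companion lists up to 4 genes of smallest p are named, and Tgm1, Tgm2 and Tgm3 are given beside Tgm5. The members and lists were chosen with earlier results of these data known, and the 2-fold minimum after seeing the values.

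Alternatives were other scalings, filters and tests (DESeq2 1.42.0, limma-voom with limma 3.58.1), no robust fit, 2 groups only, the replicate number as a block and leaving out each library. Same-numbered libraries correlated at −0.13 to 0.10 in their deviations from group means over 16806 genes, so no pairing by number was seen. The labels do not say what a number shares, and weak correlations cannot exclude a pairing. Promoter windows are RefSeq's (GRCm38.p6) and matched 41 of 45 symbols; Sprr2g, Lce1f, Kprp and Crct1 had no entry. Exon lengths and 50-base stretches came from GENCODE M21 transcripts.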

Additional observations from a re-analysis of the deposited data

How the results depend on the processing

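Counts of called genes stayed within 1.5 times of those reported under all scalings, filters and tests and without each library, apart from the higher calls for loaded against untreated. Those went from 0 to 2 with library size alone, to 1 with no filter and to 1 with only the 2 groups compared, and ran from 0 to 1 when single libraries were left out. With a minimum of 2-fold, chosen after seeing the data, loaded against untreated had 21 called and 21 lower, empty against untreated 4 called, 2 lower and 2 higher, and loaded against empty 15 called, 15 lower and 0 higher. Under the replicate block, counts called were 38, 28 and 42 for loaded against untreated, empty against untreated and loaded against empty, and 3 of 9 libraries correlated best with their own number. Under that block Lce1a1 passed for empty against untreated (−0.12, adjusted p = 0.031) and Sprr3 did not pass between the devices (adjusted p = 0.057), and no other named gene changed its call. Of 84 log2 fold changes of named genes 68 kept direction and side of the threshold in every alternative. The sign of Crnn, called lower for loaded against untreated, turned to 0.03 with library size alone. The other signs that turned belong to values that had not passed the test: Lce1c for empty against untreated to 0.01 with library size alone; Sprr4 for loaded against empty to −0.01 with upper-quartile scaling and 0.00 with the stricter filter. Sprr1b for empty against untreated went to 0.03 with DESeq2's size factors, 0.06 with upper quartiles, 0.10 with library size alone, 0.01 with no filter, 0.04 with the stricter filter, 0.03 with the DESeq2 test and 0.03 with 2 groups. Leaving out single libraries gave −0.04 to 0.09 for it, and −0.08 to 0.12 for Lce3b, −0.07 to 0.20 for Lce3c, −0.20 to 0.25 for Sprr3 in that comparison, and −0.03 to 0.07 for Sprr4 between the devices. The causes were not tested. Depth limits Sprr3 and Sprr2k, while the few counts of Sprr2a1 cannot be told apart from its overlap and shared sequence with Sprr2a2.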
